A study of Mus musculus with 10 samples.

Results

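Mitosis and spindle genes are described here in long-term hematopoietic stem cells (LT-HSCs) of the mouse fetal liver. The list holds 40 genes by name, drawn up with earlier results of these data known. All 40 were rows of the deposited count table of 17404 genes, and all 40 were among the 16725 genes tested, which had 11 or more counts over the libraries. The cells were sorted from fetal livers at E14.5 and their RNA was amplified by SmartSeq2, which copies polyadenylated RNA along its length. KO embryos (Tnfrsf11aCre; Spi1f/f, n = 6 libraries) carried floxed Spi1, the gene of the transcription factor PU.1, together with a Cre recombinase expressed from the Tnfrsf11a locus, which is active in macrophage precursors. WT embryos (Tnfrsf11a+/+; Spi1f/f, n = 4 libraries) carried the same floxed alleles without Cre, and the comparison asks how LT-HSCs differ in a liver whose macrophages were reduced by the loss of PU.1. The model targets macrophage precursors and not the stem cells themselves, and the WT embryos were littermates without Cre.

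A cell that divides first raises the cyclin-dependent kinase CDK1 with cyclins A and B, then attaches its chromosomes to the spindle through kinetochores, and separates them once the anaphase-promoting complex is released from the spindle checkpoint. Most of the genes involved are transcribed late in the cell cycle, through CCAAT boxes bound by NF-Y and through the cell cycle genes homology region (CHR), a short element bound by the DREAM and B-MYB complexes. Adult LT-HSCs are mostly quiescent, whereas those of the fetal liver divide often, and the RNA of these genes is a common readout of cycling cells. In bulk libraries, fewer dividing cells and less RNA of these genes per cell cannot be told apart.

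The promoters of both B-type cyclins, which were lower in KO, and of Cdc20, the member of highest level in WT, are shown because their late cell cycle elements differ. The sequences are from RefSeq (GRCm38.p6), all on the minus strand, and carry TTTGAA (the CHR core) and CCAAT in capitals. They reach from 200 bases before the RefSeq start to that start or, where Gencode starts the gene earlier, to the Gencode start, which leaves out the last 84 bases for Ccnb1 and the last 9 for Cdc20. Ccnb1 is shown at chr13:100786571-100786686, Ccnb2 at chr9:70421555-70421754 and Cdc20 at chr4:118437353-118437543.
Ccnb1: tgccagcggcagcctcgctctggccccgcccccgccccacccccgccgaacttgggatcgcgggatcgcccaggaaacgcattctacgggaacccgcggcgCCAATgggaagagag
Ccnb2: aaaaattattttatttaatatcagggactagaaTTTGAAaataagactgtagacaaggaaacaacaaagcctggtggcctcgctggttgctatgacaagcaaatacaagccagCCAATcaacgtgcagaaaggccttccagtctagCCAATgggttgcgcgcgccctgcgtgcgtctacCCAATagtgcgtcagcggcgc
Cdc20: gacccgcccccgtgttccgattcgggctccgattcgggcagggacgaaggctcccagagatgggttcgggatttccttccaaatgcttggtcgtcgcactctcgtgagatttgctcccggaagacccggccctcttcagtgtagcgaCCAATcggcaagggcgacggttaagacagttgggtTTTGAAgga

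Ccnb2 carries 3 CCAAT boxes and 1 CHR core in the bases shown, with another CHR core 5 bases after the start. Ccnb1 carries 1 CCAAT box and no CHR core in the bases shown, with another CCAAT box 67 bases before the RefSeq start. Cdc20 carries 1 CCAAT box and 1 CHR core, with another CCAAT box 8 bases before the RefSeq start. Promoters were at hand for 33 of the 40 members, as windows of 300 bases (250 before and 50 after the RefSeq start) searched on both strands, and the 2 motifs do not overlap in sequence. TTTGAA lay in 77.8% of the 36 member promoters and in 17.9% of all 32851 promoters, or 13.4% of those of genes tested. CCAAT lay in 77.8% of member promoters and in 37.4% of all. Both lay together in the promoters of 22 of the 33 members and in 6.95% of all promoters. Birc5, Mad2l1, Nuf2, Nusap1 and Pttg1 had neither in this window. Gencode starts 7 of the members over 50 bases before the RefSeq start (Bub3, Ccnb1, Cdca8, Cenpa, Kif2c, Kif4 and Pttg1). For 5 promoters the window searched was wholly inside the gene by that annotation. The Gencode start lay 270 bases earlier for Pttg1, 272 for a Bub3 start, 328 for Kif4, 2394 for Cdca8 and 3867 for Kif2c. All of these windows but that of Pttg1 held TTTGAA and are counted above. A match to these letters describes the sequence and shows no binding in these cells.

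The depth was 5315435 to 30941726 gene counts for the KO libraries and 7633446 to 18256010 for the WT libraries, and the members held 88 to 11615 counts per library, so that none was near the limit of detection. The floxed gene Spi1 was measured at 9.1 to 101 CPM (counts scaled to the TMM-normalized library size) in KO and 6.22 to 50.1 CPM in WT (log2 fold change 1.31 ± 0.69 SE, adjusted p = 0.337 in edgeR), so its RNA was not lower by estimate in the sorted KO cells. Of 12 stem cell markers, 11 had higher estimates in KO and Cd34, Mecom and Hlf passed the test. RNA of other cell types was present, since globins took 0.124% to 23.5% of the counts, most in WT 15418 and next in KO 15415 (12.4%). The sum of the erythroblast markers ran from 2840 to 96900 CPM in KO and from 4590 to 245000 CPM in WT, with 14 of 14 markers measured in every library. All 4 WT libraries and KO 15406 and KO 15409 held Xist RNA, and the other 4 KO libraries held little, so sex and genotype overlapped in part.

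Levels between members can be compared per length, in TPM, the transcript level scaled to length and library. In WT, Cdc20, the activator of the anaphase-promoting complex, was the highest at 287 ± 80.5 TPM (SD, n = 4), followed by Ccnb1 at 268 ± 55.7 TPM and Birc5 at 253 ± 42.6 TPM. Ube2c, Bub3, Cenpa and Cdk1 lay between 182 and 230 TPM. Neighbours among these 7 differed by less than their SD. Their levels include models not annotated as coding. Coding models held 48.0% of the TPM of Cdc20, 60.1% for Ccnb1, 60.6% for Cdk1, 82.8% for Bub3 and 9.85% for Cenpa. For Birc5 and Ube2c they held 100%. The lowest were Espl1, the gene of separase, at 3.66 ± 2.24 TPM, Cdc25c at 9.70 ± 2.31 TPM, Ect2 at 9.76 ± 2.89 TPM and Ttk at 9.80 ± 3.22 TPM, and the last 3 of these did not differ beyond their SD. In KO the order began with Cdc20 (282 ± 105 TPM, SD, n = 6) and Ube2c (250 ± 58.4 TPM), and ended with Espl1 (7.41 ± 2.82 TPM).

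In the comparison of KO with WT, 32 of the 40 members (80%) had lower estimates and 8 had higher estimates. Estimates were lower for 46.9% of all genes tested and for 53.4% of those with a mean of at least 10 CPM. The median log2 fold change was -0.31, beside 0.06 for the whole tested table and -0.05 over the 9495 genes with a mean of at least 10 CPM. Past the threshold, a Benjamini-Hochberg adjusted p below 0.1 in edgeR's quasi-likelihood test over all genes, were 4 members (10%), Ccnb1, Ccnb2, Spc24 and Pttg1, and all 4 fell. Over all genes tested, 2.67% were lower and 1.32% were higher at this threshold, and among genes with a mean of at least 10 CPM 4.61% were lower. At an unadjusted p below 0.05 lay 9 members (22.5%), all lower, beside 10.2% of all genes. Of the 9495 genes with a mean of at least 10 CPM, 1524 were lower at this p, a larger share than over all genes. In TMM-normalized CPM, these 4 members past the threshold were also the only ones of the 40 with every KO library below every WT library. Of all genes, 3.48% showed this pattern, and no member showed the reverse.

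The call depended on scale. On TMM-normalized CPM the members lay below the typical gene, and on plain library totals 23 of 40 were lower and 17 higher, with a median of -0.05 beside 0.32 over all genes, a shift of the whole table. On library totals no member passed the threshold, 6 members were lower and 1 higher at an unadjusted p below 0.05, and the calls over all genes were 3 lower and 34 higher. On TPM, 13 members were lower and 27 higher in KO by the ratio of group means. Set against the median gene of at least 10 CPM on the same scale, 31 members lay below it on TMM-normalized CPM, 30 on library totals and 32 on TPM. The directions below are therefore relative to the other genes of a library.

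**Figure D1:**
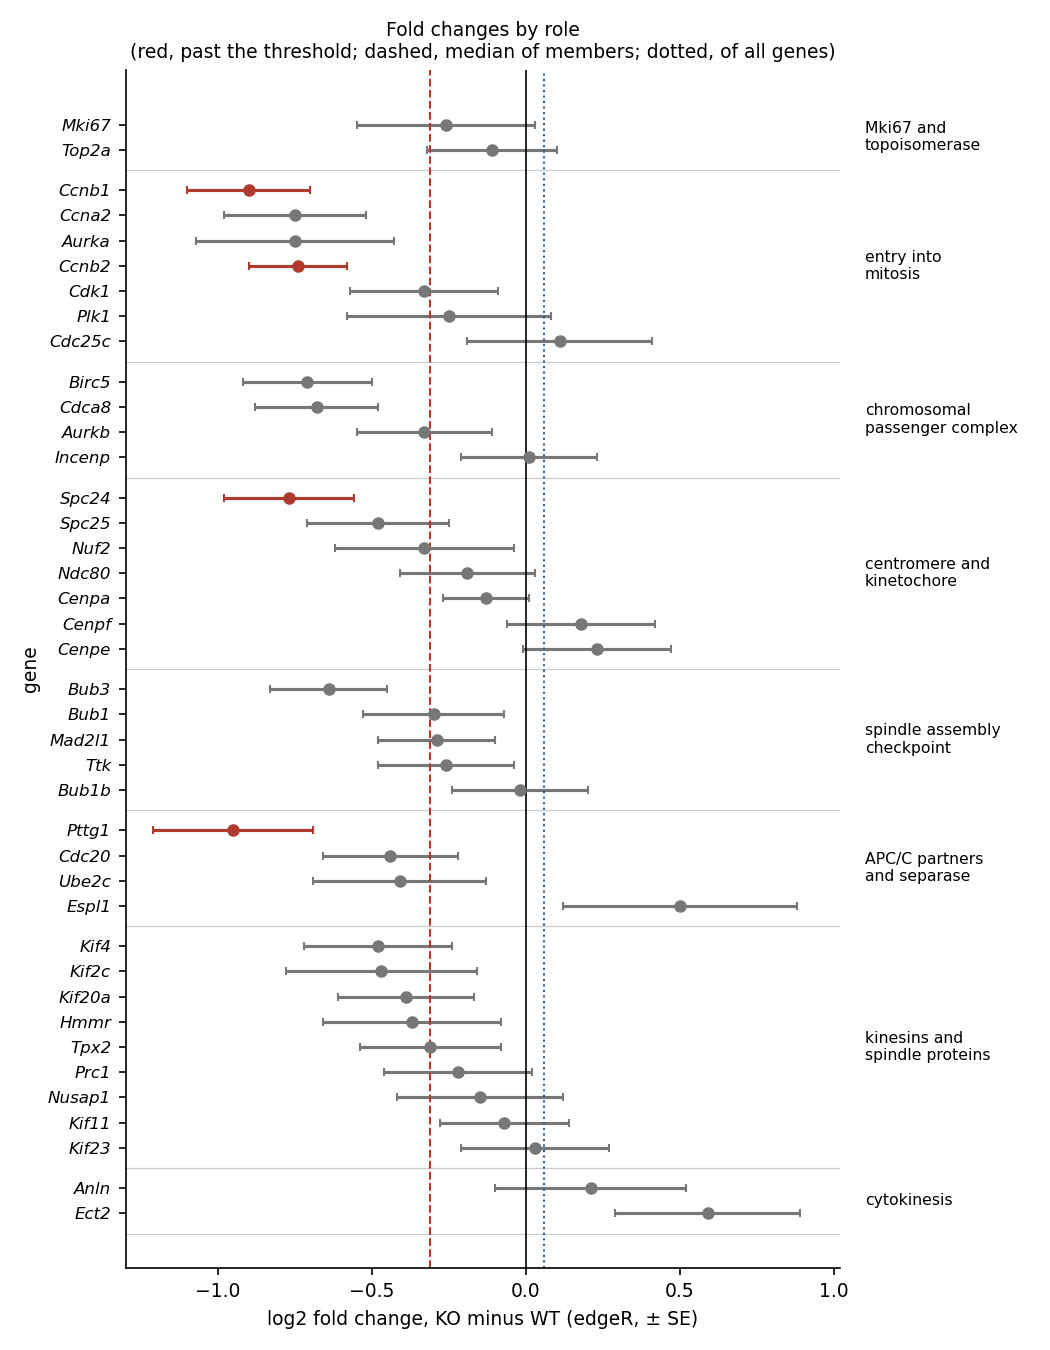
Log2 fold change of each member (KO minus WT, TMM-normalized counts, edgeR) with its standard error, ordered within 8 roles. Ccnb1, Ccnb2, Spc24 and Pttg1 (red) passed the threshold; the median of the members (dashed) was -0.31 and that of all genes tested (dotted) was 0.06.

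Among the 7 genes of entry into mitosis, 6 had lower estimates and 2 fell past the threshold, both of them B-type cyclins, the subunits that activate CDK1 at the G2/M transition. Ccnb1 (chr13:100778650-100786570, minus strand, GRCm38) was measured at 679, 458, 612 and 405 CPM in the WT libraries and at 246 to 393 CPM in KO, with a median of 272 CPM. Every KO library lay below the lowest WT library. The means were 289 ± 54.9 CPM (SD, n = 6) and 538 ± 128 CPM (SD, n = 4), a log2 fold change of -0.90 ± 0.20 (SE, adjusted p = 0.0824, edgeR). Ccnb2 (chr9:70407692-70421547, minus strand) was measured at 263, 223, 303 and 243 CPM in WT and at 134 to 180 CPM in KO, with a median of 154 CPM. Its groups did not overlap in CPM either, and its spread was among the smallest of the list. The means were 154 ± 18.3 CPM and 258 ± 34.1 CPM, a log2 fold change of -0.74 ± 0.16 (adjusted p = 0.0824), the smallest p of the 40. In TPM, Ccnb2 was at 114 ± 18.9 in KO and 138 ± 11.3 in WT, with 4 of 6 KO libraries below the lowest WT library. Reads on Ccnb2 came from 1 transcript model. Those on Ccnb1 were divided by Kallisto, and in TPM the model of 1075 bases annotated as a retained intron was at 67.6 ± 20.1 in KO and 113 ± 18.9 in WT, with 5 of 6 KO libraries below the lowest WT library, while the coding model of 2489 bases was at 69.4 ± 19.4 and 92.5 ± 34.8.

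Ccna2, the A-type cyclin that acts in S and G2 phase, was measured at 362, 242, 334 and 190 CPM in WT and at 120 to 209 CPM in KO, with 4 KO libraries below the lowest WT library. Its log2 fold change was -0.75 ± 0.23 and its adjusted p was 0.112, above the threshold in edgeR. Aurka, the kinase of spindle poles, had the same estimate of -0.75 with a wider error (0.32, adjusted p = 0.224). Its WT libraries were at 227, 178, 250 and 56.2 CPM, and WT 15420 lay below all 6 KO libraries, which were at 87.6 to 133 CPM. Plk1, the polo-like kinase, had the same low value in WT 15420, with 199, 196, 253 and 63.7 CPM in WT and 100 to 217 CPM in KO (log2 fold change -0.25 ± 0.33). Cdk1 itself was at -0.33 ± 0.24 and Cdc25c, the phosphatase that activates it, at 0.11 ± 0.30.

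**Figure D2:**
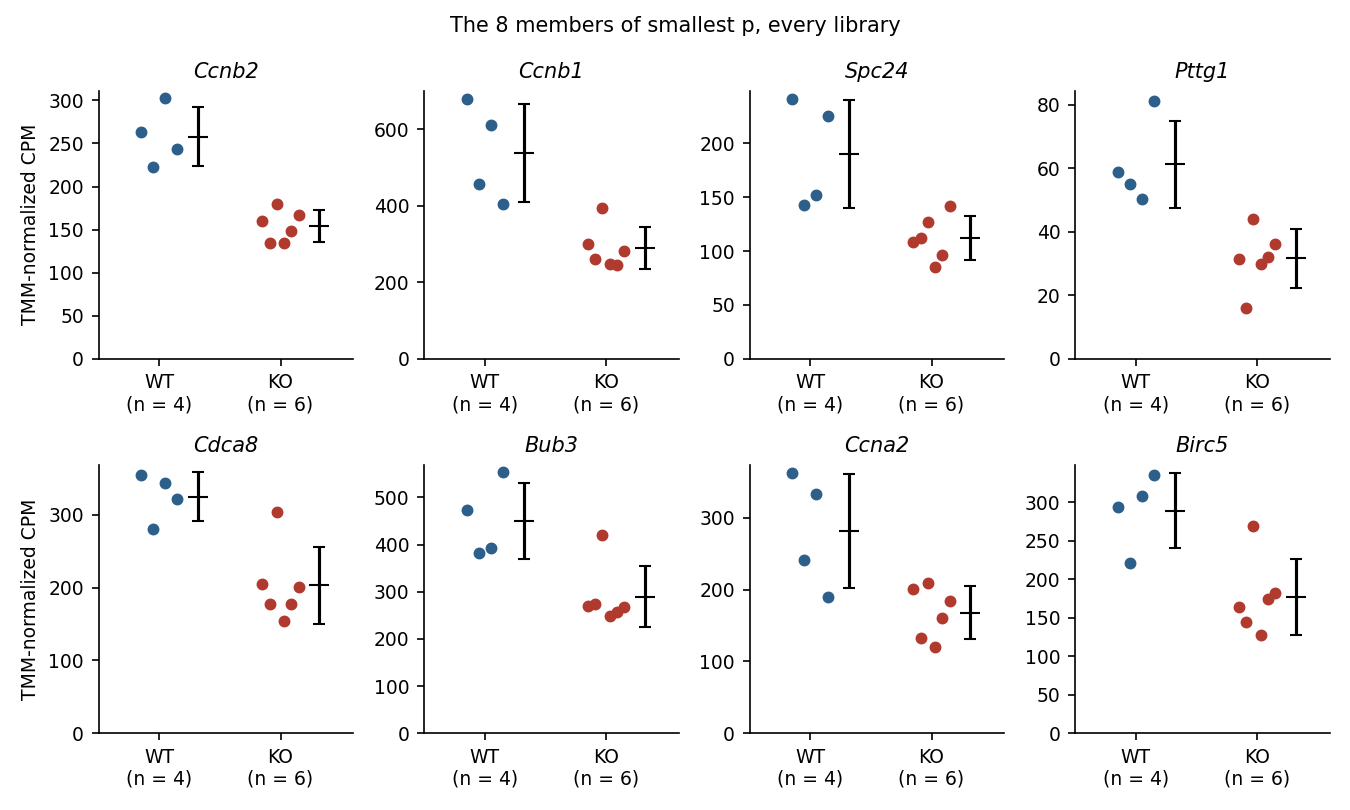
TMM-normalized CPM of the 8 members of smallest p in each WT (blue) and KO (red) library, with the mean and SD of each group in black and each vertical axis starting at 0. Groups did not overlap for Ccnb2, Ccnb1, Spc24 and Pttg1, and for Cdca8, Bub3 and Birc5 a single KO library reached the WT range.

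The chromosomal passenger complex corrects faulty attachments of chromosomes and later directs cytokinesis. Of its 4 genes none passed the threshold in edgeR, and 2 had an unadjusted p below 0.05. Cdca8, the gene of borealin, was measured at 354, 280, 344 and 321 CPM in WT and at 154 to 304 CPM in KO, with a median of 189 CPM. In 5 of 6 KO libraries it lay below every WT library, and KO 15409 lay within the WT range. Its log2 fold change was -0.68 ± 0.20 (adjusted p = 0.104). Birc5, the gene of survivin, was measured at 293, 221, 308 and 335 CPM in WT and at 128 to 269 CPM in KO, with a median of 169 CPM, and showed the same pattern of 5 KO libraries below WT and KO 15409 within it. Its means were 177 ± 49.5 CPM and 289 ± 48.9 CPM, a log2 fold change of -0.71 ± 0.21 (adjusted p = 0.114). The kinase of the complex, Aurkb, was at -0.33 ± 0.22, and the scaffold Incenp at 0.01 ± 0.22.

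Of the 7 genes of centromere and kinetochore, 1 fell past the threshold. Spc24 (chr9:21755442-21760303, minus strand), a subunit of the NDC80 complex that binds microtubules, was measured at 241, 143, 152 and 225 CPM in WT and at 85.5 to 142 CPM in KO, with a median of 110 CPM. The highest KO library, KO 15415 at 142 CPM, and the lowest WT library, WT 15417 at 143 CPM, nearly met. The means were 112 ± 20.6 CPM and 190 ± 49.9 CPM, a log2 fold change of -0.77 ± 0.21 (adjusted p = 0.0913). In TPM, the Spc24 model of 356 bases was at 13.4 ± 10.4 in KO and 46.0 ± 18.2 in WT with all 6 KO libraries below WT, whereas the most abundant model, of 1366 bases, was at 70.8 ± 10.4 and 87.4 ± 27.8 with no KO library below the lowest WT library. The other 3 subunits of the complex were at -0.48 ± 0.23 for Spc25, -0.33 ± 0.29 for Nuf2 and -0.19 ± 0.22 for Ndc80, none past the threshold.

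Cenpa, the histone H3 variant that marks centromeres, was the steadiest member, at 265, 225, 242 and 240 CPM in WT and 200 to 237 CPM in KO. Its means were 222 ± 14.1 CPM and 243 ± 16.8 CPM, a log2 fold change of -0.13 ± 0.14 (adjusted p = 0.663). Only 9.85% of its TPM lay on models annotated as coding. Cenpe, a kinesin of the kinetochore, and Cenpf, a large coiled-coil protein, had higher estimates, at 0.23 ± 0.24 and 0.18 ± 0.24.

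All 5 genes of the spindle assembly checkpoint, which holds anaphase back until chromosomes are attached, had lower estimates and none passed the threshold. Bub3 was measured at 474, 383, 392 and 553 CPM in WT and at 248 to 420 CPM in KO, with a median of 268 CPM. In KO, 5 libraries lay between 248 and 273 CPM, below WT, and KO 15409 was at 420 CPM. The means were 289 ± 64.8 CPM and 450 ± 79.8 CPM, a log2 fold change of -0.64 ± 0.19 (adjusted p = 0.110). The kinases Bub1 and Ttk were at -0.30 ± 0.23 and -0.26 ± 0.22, Mad2l1, whose protein inhibits CDC20, at -0.29 ± 0.19, and Bub1b at -0.02 ± 0.22.

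Among the genes that act on the anaphase-promoting complex or below it, Pttg1 fell past the threshold. Pttg1 (chr11:43420250-43426251, minus strand) encodes securin, the inhibitor of separase that the complex destroys at anaphase. It was measured at 58.8, 55.0, 50.3 and 81.2 CPM in WT and at 16 to 44.1 CPM in KO, with a median of 31.8 CPM. The groups did not overlap in CPM. In TPM, Pttg1 was at 47.2 ± 14.7 in KO and 70.3 ± 17.9 in WT. Its most abundant model, of 741 bases, had 1 KO library below the lowest WT library. The means were 31.6 ± 9.22 CPM and 61.3 ± 13.7 CPM, a log2 fold change of -0.95 ± 0.26 (adjusted p = 0.0919), the lowest estimate of the 40. Espl1, the gene of separase, lay in the other direction at 0.50 ± 0.38 (adjusted p = 0.517). Its WT libraries spread from 12.5 to 53.8 CPM, over the whole KO range of 25.8 to 61.1 CPM apart from its upper end.

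Cdc20 (chr4:118432901-118437352, minus strand) was measured at 519, 382, 412 and 296 CPM in WT and at 217 to 434 CPM in KO, with a median of 271 CPM. In 4 KO libraries it lay below every WT library, and the other 2 lay within the WT range. Its means were 298 ± 78.5 CPM and 402 ± 92.2 CPM, a log2 fold change of -0.44 ± 0.22 (adjusted p = 0.310). Ube2c, the ubiquitin-conjugating enzyme of the complex, was at -0.41 ± 0.28, and WT 15418 alone (485 CPM) lay above the other WT libraries, which were at 168 to 236 CPM. Tnnc2, on the opposite strand, shares 22.8% of the exonic bases of Ube2c but held at most 12 counts in any library.

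None of the 9 mitotic kinesins and spindle-associated proteins passed the threshold, and 8 had lower estimates. Kif4 and Kif2c, a chromokinesin and a microtubule depolymerase, had the lowest estimates, at -0.48 ± 0.24 and -0.47 ± 0.31. Kif20a, of the central spindle, was at -0.39 ± 0.22, Hmmr at -0.37 ± 0.29, Tpx2, which recruits and activates Aurora A, at -0.31 ± 0.23, and Prc1, which bundles antiparallel microtubules, at -0.22 ± 0.24. Nusap1 was at -0.15 ± 0.27 and Kif11, which pushes the spindle poles apart, at -0.07 ± 0.21. Kif23, the highest of the group by length-scaled level at 56.5 ± 17.9 TPM in WT, was measured at 39.8, 70.6, 83.0 and 82.9 CPM in WT and at 50.3 to 87.6 CPM in KO (log2 fold change 0.03 ± 0.24, adjusted p = 0.962). Only 23.4% of the TPM of Kif23 lay on models annotated as coding. Kif20a shares 29.3% of its exonic bases with Cdc23 on the opposite strand, and since the library protocol keeps no strand, reads from that stretch cannot be assigned to either gene.

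Both genes of cytokinesis had higher estimates. Ect2, the exchange factor that activates RhoA at the cleavage furrow, was measured at 22.8, 21.7, 44.0 and 13.3 CPM in WT and at 32.1 to 48.6 CPM in KO, with a median of 37.1 CPM. Every KO library lay above 3 of the 4 WT libraries. The means were 38.5 ± 5.81 CPM and 25.5 ± 13.1 CPM, a log2 fold change of 0.59 ± 0.30 (adjusted p = 0.310), the highest estimate of the 40. It passed the threshold only when WT 15418 was left out (1.04, adjusted p = 0.0899). Anln, the gene of anillin, was at 0.21 ± 0.31.

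Neither of the general markers of cycling cells passed the threshold. Mki67, the gene of the Ki-67 antigen, was measured at 332, 252, 662 and 347 CPM in WT and at 205 to 478 CPM in KO, a log2 fold change of -0.26 ± 0.29 (adjusted p = 0.686). Top2a, the topoisomerase that untangles chromosomes, was at 413, 280, 356 and 442 CPM in WT and at 261 to 521 CPM in KO. Its means were 344 ± 91.8 CPM and 373 ± 71.5 CPM, and its log2 fold change was -0.11 ± 0.21 (adjusted p = 0.819). For both genes the KO range covered most of the WT range.

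The spread between libraries was shaped by a few of them. The members' counts summed to 5760 to 7930 CPM in the WT libraries, to 4320 to 5300 CPM in 5 KO libraries and to 7180 CPM in KO 15409. KO 15409 was the highest KO library for 35 of the 40 members and the lowest for none, whereas it was the highest for 30.6% of the genes with a mean of at least 10 CPM. It lay above the mean of the 10 libraries for 38 members, as did WT 15418, which was the highest WT library for 19 members. Of the genes with a mean of at least 10 CPM, WT 15418 was the highest WT library for 20.6%. The median SD of the members' log2 CPM was 0.34 over the 6 KO libraries, beside 0.33 for genes of at least 10 CPM, and 0.22 without KO 15409, beside 0.31. In WT it was 0.35 beside 0.52. The SD ran from 0.09 (Cenpa) to 0.65 (Kif2c) in KO and from 0.10 (Cenpa) to 0.99 (Aurka) in WT.

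WT 15420 divided the list. It was the lowest WT library for 17 members, among them Plk1, Aurka, Hmmr, Espl1 and Ect2, and the highest for 7, which were Top2a, Cdk1, Birc5, Nuf2, Bub3, Pttg1 and Kif4. Of the genes with a mean of at least 10 CPM, it was the lowest for 29.9% and the highest for 30.4%, so extremes in both directions were not particular to the members. It also had the fewest genes detected at equal depth, 13741, beside 14351 to 15452 in the other libraries. WT 15417 was the lowest WT library for 16 members, and for 16.8% of the genes with a mean of at least 10 CPM. In KO the lowest values were shared among KO 15411 (12 members), KO 15412 (12), KO 15406 (10), KO 15415 (5) and KO 15405 (1).

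**Figure D3:**
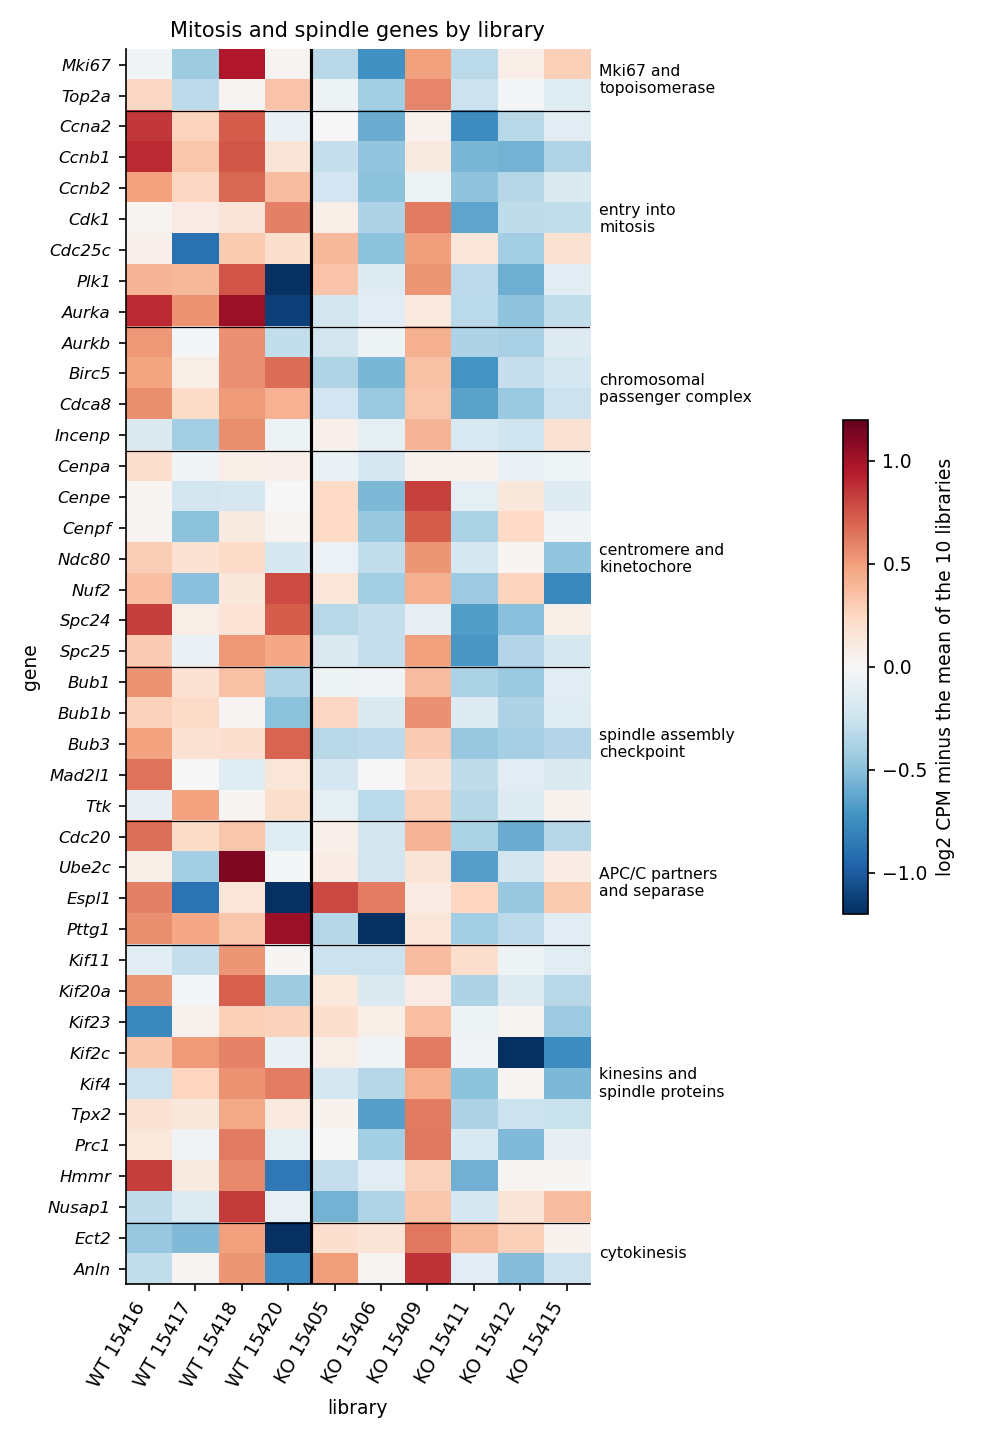
TMM-normalized log2 CPM of each member (rows, by role) in each library (columns, WT left of the line), as the difference from the mean of the 10 libraries, with values beyond -1.2 and 1.2 drawn in the end colours. KO 15409 and WT 15418 were above the mean for 38 of the 40 members, and WT 15420 was low for Plk1, Aurka, Espl1 and Ect2 and high for Pttg1 and Bub3.

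The number of members past the threshold depended on single libraries. Without KO 15409, 8 members fell, Ccna2, Birc5, Cdca8 and Bub3 in addition to the 4, and the median log2 fold change was -0.43, while the share of all genes that fell was 3.60%. Without WT 15420 the members past it were Ccna2, Ccnb1, Ccnb2 and Aurka, and without WT 15417 they were Ccnb1, Ccnb2, Birc5 and Spc24, beside 2.71% and 3.19% of all genes lower. Without WT 15418 the median was -0.17, 25 members were lower and 15 higher, and Ccnb1, Ccnb2 and Spc24 fell, beside 2.41% of all genes, while Ect2 rose. Without KO 15405, KO 15406, KO 15411, KO 15412, KO 15415 or WT 15416 no member passed, and among all genes tested 0 or 1 did, while 8 or 9 members had an unadjusted p below 0.05 and a lower estimate. DESeq2 without a fold-change threshold called the same 8 members lower (20%), where it called 7.85% of the genes to which it gave an adjusted p lower. Among the libraries with Xist RNA (4 WT, 2 KO) no member passed, 28 were lower and the median was -0.14.

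Markers of other states also differed between the groups or libraries, and their part in the result was not tested beyond the covariate fits given here. All 16 DNA replication genes had lower estimates in KO, with a median of -0.49. Of them, 1 passed the threshold, Pola2, a subunit of DNA polymerase alpha (-1.34 ± 0.22, adjusted p = 0.0824, edgeR). The summed level of the 16 genes was 3420 to 4230 CPM in KO and 4220 to 8260 CPM in WT. The median of the 12 stem cell markers against their 10-library mean was 0.40 to 0.92 in 5 KO libraries and -0.68 in KO 15409, and it was -1.77 to -0.05 in WT. All 14 erythroblast markers had lower estimates, with a median of -1.36, and 1 of them, Epor, passed the threshold. In KO these markers had medians of -1.66 in KO 15409 and 1.51 in KO 15415, against 0.39 and -0.15 for the members. Among the WT libraries the markers and the members had the same order. Both were highest in WT 15418 (3.07 and 0.5) and lowest in WT 15420 (-1.37 and 0.02). With the globins removed before the fit the same 4 members passed, beside 2.42% of all genes lower, and with the erythroblast markers other than globins as a covariate 6 members passed, these 4 among them, beside 3.47% of all genes lower. Granulocyte, megakaryocyte and hepatoblast markers held no gene past the threshold, and 6 of 10, 8 of 8 and 10 of 10 of them had higher estimates in KO, with medians of 0.31, 1.05 and 0.72. Of the 12 macrophage markers, 8 had lower and 4 had higher estimates in KO, and Marco alone passed the threshold, at 0 counts in all 6 KO libraries and 3.41 to 14.3 CPM in WT.

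**Figure D4:**
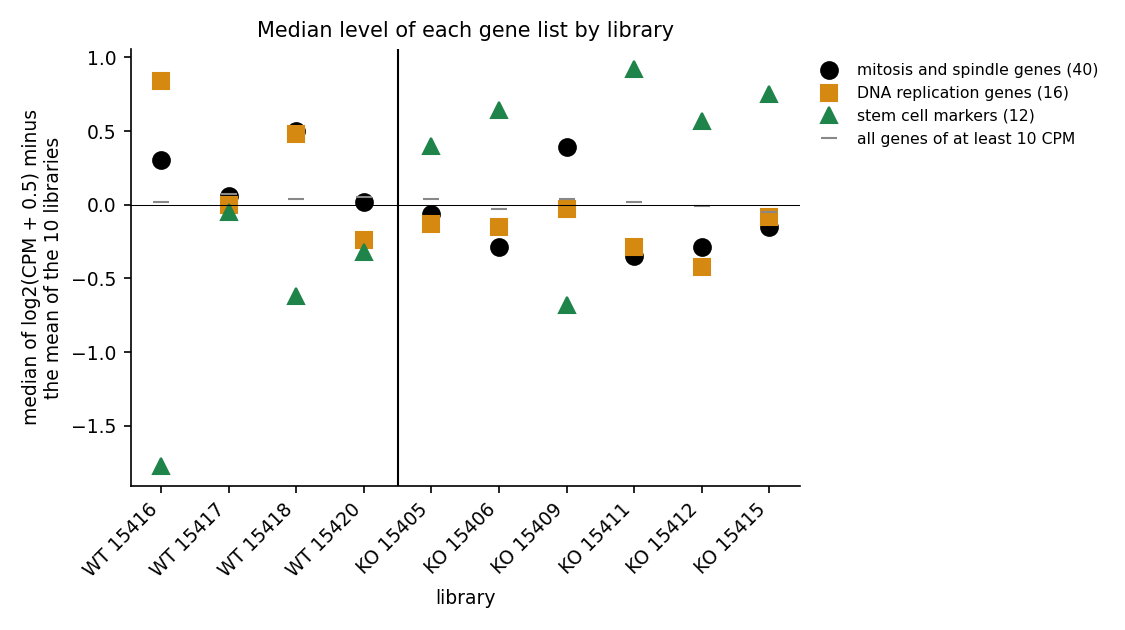
Median of log2(CPM + 0.5) of each gene list in each library, as the difference from the mean of the 10 libraries (WT left of the line). The mitosis and spindle genes were highest in WT 15418 (0.50) and KO 15409 (0.39), and the stem cell markers were low in the same 2 libraries (-0.62 and -0.68) and lowest in WT 15416 (-1.77).

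Transcript length moved with the fold change. When all genes tested were divided by TPM-weighted transcript length into 5 equal bins, the median of the bins went from -0.30 for the shortest to 0.34 for the longest. Ccnb1, Ccnb2, Spc24 and Pttg1 had lengths of 1678, 1531, 1077 and 779 bases, and all 4 lay in the shorter part when the genes were divided at 2275 bases. Most genes called lower did so too, with 383 in the shorter part and 60 in the longer over all genes tested. The 20 members below 2275 bases had a median of -0.42, beside -0.13 for all such genes, and the 20 longer members a median of -0.19, beside 0.23. Among genes with a mean of at least 10 CPM these background medians were -0.24 and 0.16, closer to those of the members. Among the 40 members length and fold change correlated with a Spearman's rho of 0.52, as a description of genes that share the same 10 libraries. Cenpe, Cenpf and Espl1, at 5820 to 6658 bases, had higher estimates, whereas the longest member, Mki67 at 10057 bases, and Kif11 at 4819 bases had lower ones.

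With a loess offset on that length, the medians were -0.27 for the shorter and -0.29 for the longer members. All genes of these lengths were at 0.03 and 0.06, and those with a mean of at least 10 CPM at -0.07 and -0.01. The rho among the members was then -0.03. In that fit 34 members were lower and 6 higher, with a median of -0.27, but no member and no gene of the table passed the threshold, while 11 members had an unadjusted p below 0.05, all lower. Ccnb1 was then at -0.80, Mki67 at -0.77, Ccna2 at -0.76 and Kif4 at -0.70. Estimates of the 4 members past the threshold ran from -1.07 to -0.47 over the 29 alternatives.

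**Figure D5:**
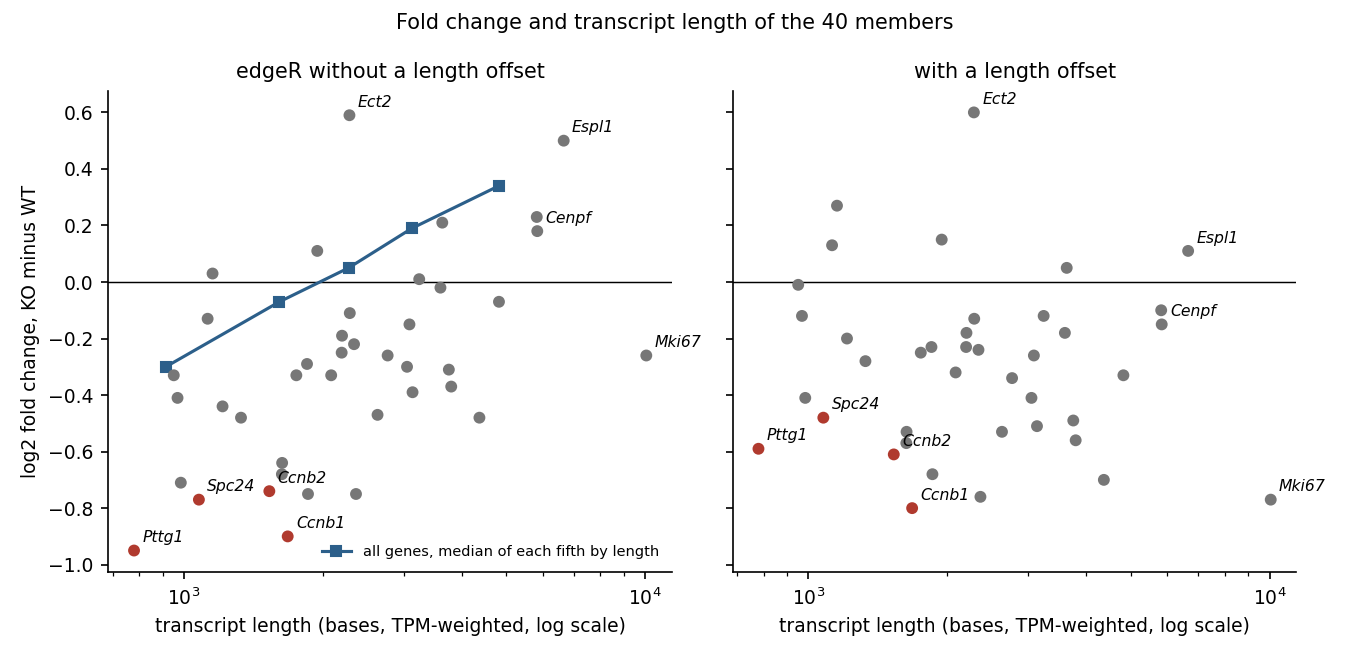
Log2 fold change (KO minus WT) of the 40 members against transcript length in bases (TPM-weighted, log scale), without (left) and with (right) a loess offset on length, with members past the threshold in the fit without an offset in red. Blue squares are the medians of all genes in 5 equal bins of length, from -0.30 to 0.34, and the members' medians (-0.42 shorter, -0.19 longer) lay below those of all genes.

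The wider mitotic pathway was described from 7 further lists, of which 186 genes were tested. Of these, 119 (64.0%) had lower estimates and 67 had higher ones, with a median of -0.16. Over all genes tested 46.9% had lower estimates, and among those with a mean of at least 10 CPM 53.4%. Past the threshold, 2 of the 186 (1.08%) fell and 1 rose. The share that fell past the threshold was below the 2.67% of all genes tested. At an unadjusted p below 0.05 in edgeR, 32 of the 186 were lower and 6 were higher. At that p, 10.2% of all genes were lower, and 1524 of the 9495 genes with a mean of at least 10 CPM. Among 37 other kinetochore and centromere genes, 28 had lower estimates and Cenpx, a small centromere protein, fell (79.8 ± 9.82 CPM in KO, 133 ± 33.8 CPM in WT, log2 fold change -0.73 ± 0.19, adjusted p = 0.0877). Among 34 other genes of entry into mitosis and its transcription factors, 22 had lower estimates and E2f4, the E2F factor of the DREAM complex, fell (98.4 ± 13.1 CPM in KO, 193 ± 64.7 CPM in WT, -0.97 ± 0.22, adjusted p = 0.0824).

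Among 21 condensin and cohesin genes, 12 had lower estimates and Pds5b, which regulates the release of cohesin, rose (49.7 ± 3.64 CPM in KO, 31.2 ± 1.82 CPM in WT, 0.67 ± 0.17, adjusted p = 0.0836). Its transcripts are long, at 4464 bases. No gene of the other 4 lists passed. Of 16 genes of the anaphase-promoting complex, 14 had lower estimates, and the smallest p was that of Ube2s, its chain-elongating enzyme (-0.66 ± 0.21, adjusted p = 0.129). Of 18 tubulins, 12 were lower, with Tuba1b at -0.49 ± 0.15 (adjusted p = 0.119). The 40 other kinesins and spindle-associated genes were divided into 21 lower and 19 higher, with Kpna2 at -0.83 ± 0.29 (adjusted p = 0.154), and the 20 centrosome genes into 10 and 10, with Cetn3 at -0.56 ± 0.20 (adjusted p = 0.168).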

How the data were processed

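LT-HSC libraries (6 KO, 4 WT) were sequenced single-end, and the authors quantified transcripts with Kallisto 0.44.0 on Gencode vM16 (GRCm38) after bcl2fastq 2.20. The authors deposited estimated counts and TPM per transcript, and a table of counts in which the estimates were summed by gene symbol and rounded, without normalization or strand. Sums of the transcript estimates lay within 1 count of 97.5% of that table.

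Counts of genes with at least 11 in total were compared with edgeR 4.0.16 (R 4.3.3, TMM, robust glmQLFit, glmQLFTest), adjusted over all genes at the threshold of 0.1 used in the study. CPM are TMM-normalized. SEs were derived from the F statistic. Scripts recovered known changes of 200 genes in simulated data. Those changes were larger than any estimate of the members, and changes as small as theirs were not simulated. TPM were summed by symbol for levels. Positions and lengths are from Gencode vM21. The reads carry no molecular identifiers, and p-values set the difference between the groups against the spread between these libraries.

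The members and lists were chosen with earlier results of these data known. Named with full statistics were the members past the threshold, extended to the 6 of smallest p, and the highest by TPM in each role, and in other lists the genes past the threshold or the one of smallest p. Alternatives were DESeq2 1.42.0 with a log2 threshold of 0.1 or none, other scalings, filters and thresholds, offsets for length or GC content (loess span 0.3), covariates, and each library left out. Covariates for globins, erythroblast markers and genes detected, the TPM-weighted length offset, plain library totals and the Xist subset were chosen after seeing the data. Python 3.11.15, pandas 2.3.3 and NumPy 2.4.6 were used.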

Additional observations from a re-analysis of the deposited data

Results flagged for a closer look

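In 9 of the 80 groups of CPM values (40 members in KO and in WT) the highest or lowest library stood apart by Dixon's test at its 95% critical value, which flags about 1 group in 20 by chance, or 4 of 80. In KO, 6 of these were KO 15409, higher than the other 5 KO libraries. It was at 521 CPM for Top2a (others 261 to 345), 190 CPM for Aurkb (others 108 to 135), 304 CPM for Cdca8 (others 154 to 205), 98.1 CPM for Spc25 (others 43.0 to 61.5), 420 CPM for Bub3 (others 248 to 273) and 201 CPM for Prc1 (others 89.7 to 129). The members share these libraries, so the flags are not independent. In WT, WT 15418 stood high for Tpx2 at 234 CPM (others 185 to 192) and for Nusap1 at 127 CPM (others 57.3 to 66.8), and WT 15417 stood low for Cenpf at 78.5 CPM (others 113 to 119).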

How the results depend on the processing

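Over all genes, 667 were past the threshold. With filterByExpr 972 were past it, and with upper-quartile normalization 501. With the GC offset 765 were past it, with 11 counts required in 1 library 719, and with the erythroblast covariate 961. DESeq2 called 1136 with a log2 threshold of 0.1 and 2143 without one, plain library totals gave 37, and 0 were called with either length offset, with Xist or the number of genes detected as a covariate, among the libraries with Xist, or at an adjusted p below 0.05. With 1 library left out the count ran from 0 to 1003. The members past the threshold, 4 of 40, became 8 with DESeq2 without a fold-change threshold or with filterByExpr, 2 with upper-quartile normalization, and 0 in the settings that left no gene and on library totals. With 1 library left out the count ran from 0 (without KO 15405, KO 15406, KO 15411, KO 15412, KO 15415 or WT 15416) to 8 (without KO 15409). The 3 other pathway genes became 22 with DESeq2 without a threshold, 6 with filterByExpr or the GC offset, 5 with 11 counts required in 1 library, 9 with the erythroblast covariate, 0 in the settings that left no gene and on library totals, and 0 to 9 with 1 library left out. The members' median of -0.31 was -0.05 on library totals, -0.43 to -0.17 with 1 library left out and below 0 in every other setting. The cause of these changes was not tested, apart from the fewer libraries where some were left out.

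Of the 40 members, 23 kept their direction in the 29 alternatives that refit them and 17 reversed in at least 1. On library totals Mki67 (0.04), Top2a (0.14), Plk1 (0.03), Cenpa (0.13), Ndc80 (0.07), Bub1b (0.23), Kif11 (0.22), Prc1 (0.06) and Nusap1 (0.14) turned higher. With the mean-length offset Incenp was at -0.19, Cenpa at 0.05, Cenpf at -0.03 and Bub1b at 0.12, and with the TPM-weighted one Incenp at -0.12, Cenpa at 0.13, Cenpe at -0.10 and Cenpf at -0.15. Transcript sums with a length offset put Cenpe at -0.42, Bub1b at 0.05 and Kif23 at -0.15. Bub1b was at 0.02 with the GC offset, 0.11 with Xist as a covariate and 0.01 without globins. The genes-detected covariate put Top2a at 0.08, Cdk1 at 0.16 and Nuf2 at 0.13, and the erythroblast covariate put Kif23 at -0.08 and Nusap1 at 0.02. Among the libraries with Xist, Top2a was at 0.05, Ndc80 at 0.01, Bub1b at 0.17 and Prc1 at 0.01.

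With 1 library left out, 10 members changed direction. Their estimates ran from -0.42 to 0.15 for Mki67, -0.53 to 0.02 for Plk1, -0.59 to 0.06 for Ube2c, -0.17 to 0.18 for Kif11, -0.41 to 0.01 for Prc1 and -0.28 to 0.23 for Nusap1, each highest without WT 15418. They ran from -0.09 to 0.30 for Cdc25c and -0.11 to 0.30 for Incenp, each lowest without WT 15417, from -0.16 (without WT 15420) to 0.08 (without KO 15412) for Bub1b, and from -0.16 (without WT 15416) to 0.18 (without WT 15418) for Kif23. No paired analysis was possible because the labels give no litter, batch or pairing of the KO and WT libraries.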
